A study of Mus musculus with 7 samples.

Results

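The immunoproteasome and the peptide transporter supply the short peptides that MHC class I molecules display, and their transcripts were followed in brain microglia with and without B2m, the light chain of those molecules. The gene set was chosen by symbol and held 10 genes: Psmb8, Psmb9 and Psmb10, Psme1 and Psme2, Tap1 and Tap2, Tapbp and Tapbpl, and Nlrc5. Of these, 9 had a probe set in the array's annotation and 9 passed the filter on low values, out of 10004 genes tested and 19505 named. Nlrc5 was not analysed here. Cells positive for CD45 and CD11b and negative for a viability dye were sorted from brain, and the RNA of each of 7 samples was hybridized to 1 array. The knockout group held 4 samples of genotype 5xFAD;B2m-/- and the wildtype group 3 samples of genotype 5xFAD;B2m+/+, all of strain C57BL/6. All 7 samples therefore carried the 5xFAD transgenes, which are driven by the neuronal Thy1 promoter in a mouse model of amyloid plaque formation. No mice without 5xFAD were among them. Age, the B2m allele, and whether cells of several animals were pooled are not given in the sources used here.

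Proteasomes cut proteins into peptides inside a barrel-shaped core called the 20S particle. In immune cells, and in other cells exposed to interferon, the catalytic subunits Psmb8, Psmb9 and Psmb10 can take the places of the constitutive Psmb5, Psmb6 and Psmb7, which changes the peptides that are cut. Psme1 and Psme2 form a cap that opens the barrel, the Tap1 and Tap2 pair pumps peptides into the endoplasmic reticulum, and Tapbp (tapasin) and Tapbpl help load and edit peptides on class I molecules. Nlrc5 is the transcriptional activator of this gene program. The study asked how microglial transcription in 5xFAD mice differs when B2m is missing.

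Psmb9, Tap1, Psmb8 and Tap2 lie next to each other in that order within the MHC on chromosome 17, where Tapbp is found as well. Psmb10 and Nlrc5 are on chromosome 8, Psme1 and Psme2 on chromosome 14 and Tapbpl on chromosome 6, so none of them shares chromosome 2 with B2m. Psmb9 and Tap1 are transcribed in opposite directions from 1 short stretch, which is shown first because the differences of both genes are compared below. It covers the 225 bases between their start sites, chr17:34187331-34187555, on the plus strand of GRCm38.p6 from RefSeq, with Psmb9 to the left and Tap1 to the right. Capitals mark the match to a GC box (GGGGCGGGG, searched on both strands), which 11.4% of 32851 promoter windows of 300 bases hold. The other pair of sequences shows the only matches that 3 immune motifs gave in the windows of 7 of the 10 genes. Capitals mark an interferon-stimulated response element (GAAA, any 2 bases, then GAAA, in 3.44% of windows) at Psme1, chr14:55578493-55578522, and a gamma-activated site (TTCNNNGAA, in 8.3% of windows) at Psmb8, chr17:34198088-34198117. Both sequences are printed on the plus strand. The Psme1 match is on the minus strand, so its capitals are the reverse complement of the motif, and the Psmb8 motif matches both strands. A kappa-B motif (GGGA, any 2 bases, then TTCC, in 1.47% of windows) had no match in these windows, and none of these 3 motifs matched between Psmb9 and Tap1. All motifs were searched on both strands, and a match is a description of the letters only.
Psmb9 to Tap1: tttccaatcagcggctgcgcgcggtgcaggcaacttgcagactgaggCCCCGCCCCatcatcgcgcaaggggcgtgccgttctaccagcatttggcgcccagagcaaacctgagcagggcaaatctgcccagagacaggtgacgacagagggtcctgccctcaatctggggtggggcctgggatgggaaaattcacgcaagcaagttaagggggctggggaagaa
Psme1 site: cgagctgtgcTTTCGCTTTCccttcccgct
Psmb8 site: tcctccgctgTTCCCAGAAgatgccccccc

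The arrays were checked first. B2m was 10.40, 10.56, 10.46 and 10.24 log2 units in the knockout arrays, against 13.42, 13.41 and 13.39 in the wildtype arrays, and fell by 2.99 (SE 0.10, limma adjusted p = 1.54e-07). All 9 measured microglial markers, among them P2ry12, Tmem119 and Cx3cr1, lay above the 95th percentile of 5222 negative control rows on each of the 7 arrays. T cell, natural killer cell and B cell markers lay below it on each array (0 of 6, 0 of 6 and 0 of 4 above it on any array). Markers of neutrophils, which also carry CD45 and CD11b, were summed on the linear scale over 5 genes and gave 4466 to 17242 in knockout and 4433 to 7364 in wildtype arrays, with 2 of the 5 above that percentile on every array. The highest values were 17242 in knockout replicate 4 and 11481 in knockout replicate 3. Monocyte markers gave 2805 to 6591 in knockout and 2119 to 3364 in wildtype arrays over 6 genes, with 0 above it on every array and 3 on none. Border macrophage markers gave 3559 to 4268 in knockout and 3427 to 4847 in wildtype arrays over 6 genes, with 2 above it on every array and 2 on none. Dendritic cell markers gave 2872 to 3435 in knockout and 2988 to 3348 in wildtype arrays over 7 genes, with 1 above it on every array and 5 on none. Endothelial and mural markers gave 19246 to 21288 in knockout arrays over 12 genes, and 25409, 26427 and 18688 in wildtype replicates 1, 2 and 3, with 6 above it on every array and 4 on none. In bulk RNA, fewer cells of a type and less RNA per cell cannot be told apart.

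The 5 immunoproteasome genes had higher mean values in knockout microglia by 0.19 to 0.43 log2 units, and the 4 transport and loading genes differed by -0.15 to 0.08. In limma 0 of the 9 genes passed an adjusted p of 0.05, where 0.050% of all tested genes passed in either direction. At an unadjusted p under 0.05, 3 of the 9 were higher (Psmb8, Psmb9 and Psme2), where 8.39% of all tested genes were, and 0 were lower, where 3.54% were. The median difference was 0.33 over the 5 immunoproteasome genes, 0.03 over the 4 transport and loading genes and -0.01 over all tested genes. The difference was above 0 in 7 of the 9, and in 48.6% of all tested genes. Psme2 was the only gene of the 9 whose groups did not overlap. Every knockout array exceeded every wildtype array for 1 of the 9 and for 7.10% of all tested genes, and lay below every wildtype array for 0 of the 9 and for 3.80% of all tested genes. Without wildtype replicate 1, the number higher at an unadjusted p under 0.05 was 0, and without knockout replicate 2 it was 1.

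Psmb8, the inducible counterpart of the subunit that cuts after hydrophobic residues, had the largest difference of the 9. It was 11.29, 11.50, 11.40 and 11.09 in knockout arrays, against 10.51, 11.02 and 11.14 in wildtype arrays. Knockout replicate 4 lay just under wildtype replicate 3, and wildtype replicate 1 was the lowest of all. The means were 11.32 ± 0.17 (SD, n = 4) in knockout and 10.89 ± 0.33 (SD, n = 3) in wildtype microglia. The difference of 0.43 (SE 0.16, limma adjusted p = 0.356) is 1.35-fold with a 95% interval of 1.06 to 1.72, and was 0.24 without wildtype replicate 1.

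Psmb9, which replaces the caspase-like subunit, was 11.19, 11.38, 11.24 and 10.84 in knockout arrays, against 10.47, 10.72 and 11.13 in wildtype arrays. Again knockout replicate 4 was the lowest of its group and wildtype replicate 1 the lowest of all. The groups overlapped, since wildtype replicate 3 exceeded knockout replicate 4. The difference was 0.39 (SE 0.17, limma adjusted p = 0.406), or 1.31-fold with a 95% interval of 1.01 to 1.70. It was 0.24 without wildtype replicate 1. Psmb10, which replaces the trypsin-like subunit, was 10.16, 10.30, 10.15 and 10.01 in knockout arrays, against 9.76, 9.79 and 10.15 in wildtype arrays. Wildtype replicate 3 lay among the knockout arrays, and the other wildtype arrays lay below all of them. The Psmb10 difference was 0.25 (SE 0.12, limma adjusted p = 0.452).

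The cap subunits of the 20S core were also lowest in wildtype replicate 1. Psme2 (PA28 beta) was 12.09, 12.19, 12.14 and 11.99 in knockout arrays, against 11.55, 11.81 and 11.96 in wildtype arrays. The groups were apart, by a gap between knockout replicate 4 and wildtype replicate 3 that was small beside the range within wildtype. The Psme2 difference was 0.33 (SE 0.12, limma adjusted p = 0.349), or 1.25-fold with a 95% interval of 1.05 to 1.5. It was 0.21 without wildtype replicate 1. Psme1 (PA28 alpha), whose protein assembles with that of Psme2, was 12.27, 12.42, 12.18 and 12.21 in knockout arrays, against 12.02, 12.03 and 12.19 in wildtype arrays. Knockout replicate 3 and wildtype replicate 3 were level. The Psme1 difference was 0.19 (SE 0.10, limma adjusted p = 0.495). Psme2b, a separately annotated copy of Psme2 named outside the rule for named genes, averaged 11.31 ± 0.19 (SD, n = 4) in knockout and 11.17 ± 0.18 (SD, n = 3) in wildtype arrays. Whether the probe sets of Psme2 and Psme2b read each other's transcripts was not tested. Psme3, which forms the cap of nuclear proteasomes, differed by 0.09 (SE 0.12, limma adjusted p = 0.810).

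**Figure D1:**
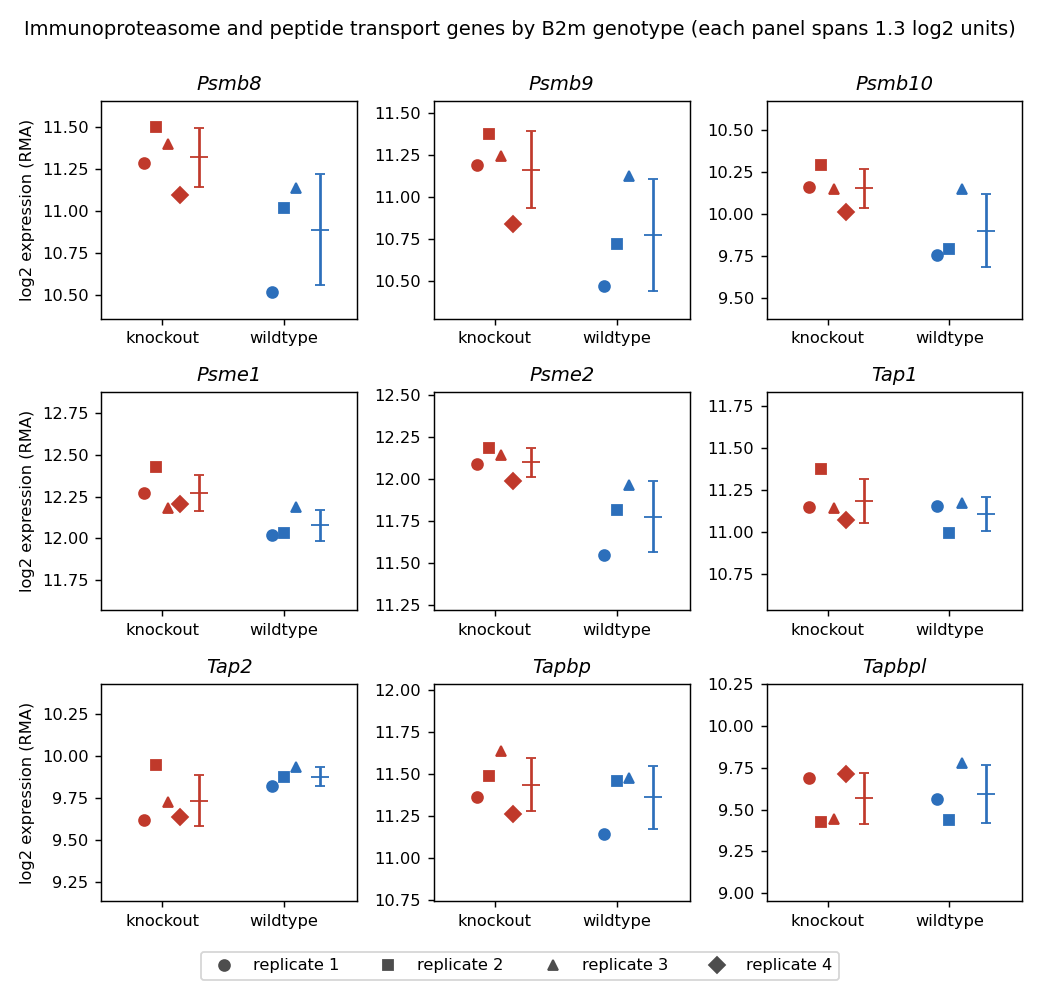
Log2 expression after RMA of the 9 measured genes, 1 point per array with a different shape for each replicate, in 4 B2m knockout (red, left) and 3 B2m wildtype arrays (blue, right), with mean and SD beside the points. Wildtype replicate 1 is the lowest point in Psmb8, Psmb9, Psmb10, Psme1 and Psme2, and the groups overlap in all panels but Psme2.

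The transporter genes had differences nearer 0, of opposite sign, and neither passed the test. Tap1 was 11.15, 11.37, 11.14 and 11.07 in knockout arrays, against 11.16, 10.99 and 11.17 in wildtype arrays. The groups overlapped throughout, and knockout replicate 2 alone stood above the rest. The Tap1 difference was 0.08 (SE 0.11, limma adjusted p = 0.821), with a 95% interval of -0.16 to 0.32. It was 0.0122 without knockout replicate 2 and 0.0181 without wildtype replicate 2. Tap2, the other chain of the pump, was 9.62, 9.95, 9.73 and 9.64 in knockout arrays, against 9.82, 9.88 and 9.94 in wildtype arrays. Here 3 knockout arrays lay below all wildtype arrays and knockout replicate 2 lay above them. The Tap2 difference was -0.15 (SE 0.11, limma adjusted p = 0.626), with a 95% interval of -0.39 to 0.10.

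Tapasin, encoded by Tapbp, bridges the transporter and the class I molecule. It was 11.37, 11.49, 11.64 and 11.26 in knockout arrays, against 11.15, 11.46 and 11.48 in wildtype arrays. The groups overlapped and the difference was 0.08 (SE 0.13, limma adjusted p = 0.849). It was -0.03 without wildtype replicate 1. Tapbpl, which edits the peptides on class I molecules away from the transporter, was 9.69, 9.42, 9.45 and 9.71 in knockout arrays, against 9.56, 9.44 and 9.78 in wildtype arrays. The Tapbpl difference was -0.03 (SE 0.12, limma adjusted p = 0.954), with a 95% interval of -0.30 to 0.25. It turned to 0.0217 without knockout replicate 2, 0.0147 without knockout replicate 3, 0.0673 without wildtype replicate 3 and 0.00827 with arrays centred on their medians. On 5 of 7 arrays Tapbpl exceeded the negative control percentile given above, and the other 8 genes exceeded it on all 7.

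Psmb9 and Tap1, which start from the stretch shown above, were set against each other within each array. Psmb9 minus Tap1 was 0.04, 0.00495, 0.10 and -0.23 in knockout arrays, against -0.69, -0.27 and -0.05 in wildtype arrays. The values overlapped, with knockout replicate 4 between wildtype replicates 2 and 3. The genotype difference in this quantity was 0.31 (exact permutation test over 35 splits, two-sided p = 0.114, adjusted p = 0.343 over 3 such pairs). This pair was chosen after the values were seen, and the smallest p that 35 splits allow is 0.0286. Without wildtype replicate 1 the difference was 0.14.

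The constitutive subunits that the inducible ones replace also had higher means in knockout arrays. Psmb6, the caspase-like subunit that Psmb9 replaces, was 11.12, 11.22, 11.03 and 10.92 in knockout arrays, against 10.46, 10.72 and 10.87 in wildtype arrays. The groups did not overlap, and the difference was 0.39 (SE 0.12, limma adjusted p = 0.334). Psmb7, the trypsin-like subunit that Psmb10 replaces, was 10.74, 10.57, 10.81 and 10.67 in knockout arrays, against 10.45, 10.52 and 10.47 in wildtype arrays. These groups did not overlap either, at a difference of 0.21 (SE 0.10, limma adjusted p = 0.432). Psmb5 was not analysed here, so Psmb8 has no such counterpart.

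Each inducible subunit was also set against its constitutive counterpart within arrays, as a difference of log2 values whose size depends on the probe sets and is read between genotypes only. Psmb9 minus Psmb6 averaged 0.09 ± 0.13 (SD, n = 4) in knockout and 0.09 ± 0.14 (SD, n = 3) in wildtype arrays. The genotype difference in this quantity was 0.00087 (exact permutation test over 35 splits, two-sided p = 1). Psmb10 minus Psmb7 averaged -0.54 ± 0.18 (SD, n = 4) in knockout and -0.58 ± 0.23 (SD, n = 3) in wildtype arrays. Its genotype difference was 0.04 (exact permutation test over 35 splits, two-sided p = 0.686, adjusted p = 1 over 3 pairs). These p-values do not show that the pairs behaved alike. Leaving out single arrays moved the values between -0.04 and 0.08 for Psmb9 minus Psmb6 and between -0.05 and 0.17 for Psmb10 minus Psmb7.

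The other 20S core genes had a median difference of 0.24 over 11 genes, with 10 above 0 and a range of -0.03 to 0.42. At an unadjusted p under 0.05, 6 of the 11 had higher values and 0 had lower ones, and 0 passed in limma after adjustment. Over all tested genes 8.39% were higher and 3.54% lower at that p, and 48.6% had a difference above 0. The core subunits Psmb3, Psma5 and Psma2 differed by 0.36 (SE 0.12), 0.27 (SE 0.10) and 0.32 (SE 0.12). Genes of the 19S regulator, which recognizes and unfolds ubiquitin-tagged proteins, had a median of 0.19 over 17 genes, with 14 above 0 (against 48.6% of all tested genes) and 3 higher at an unadjusted p under 0.05 (against 8.39% of all tested genes). The lid subunits Psmd6 and Psmd13 differed by 0.38 (SE 0.10) and 0.32 (SE 0.11), and the deubiquitinating subunit Psmd14 by 0.23 (SE 0.10). Proteasome assembly factors had a median of 0.20 over 8 genes, of which 1 was higher at an unadjusted p under 0.05, close to the share over all tested genes. That was the chaperone Psmg4 at 0.53 (SE 0.16, limma adjusted p = 0.320). Psmg4, Psmd13 and Psmd14 were above the negative control percentile on 0 of 7 arrays, so their values lie in the dim range. Pomp, the assembly factor that carries precursor subunits into the core, differed by 0.26 (SE 0.13, limma adjusted p = 0.471). In none of these lists did a gene pass in limma. The median over the 5 immunoproteasome genes (0.33) and the median over the other core genes (0.24) stood on the same side of the median of all genes, and the difference between these medians was not tested.

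**Figure D2:**
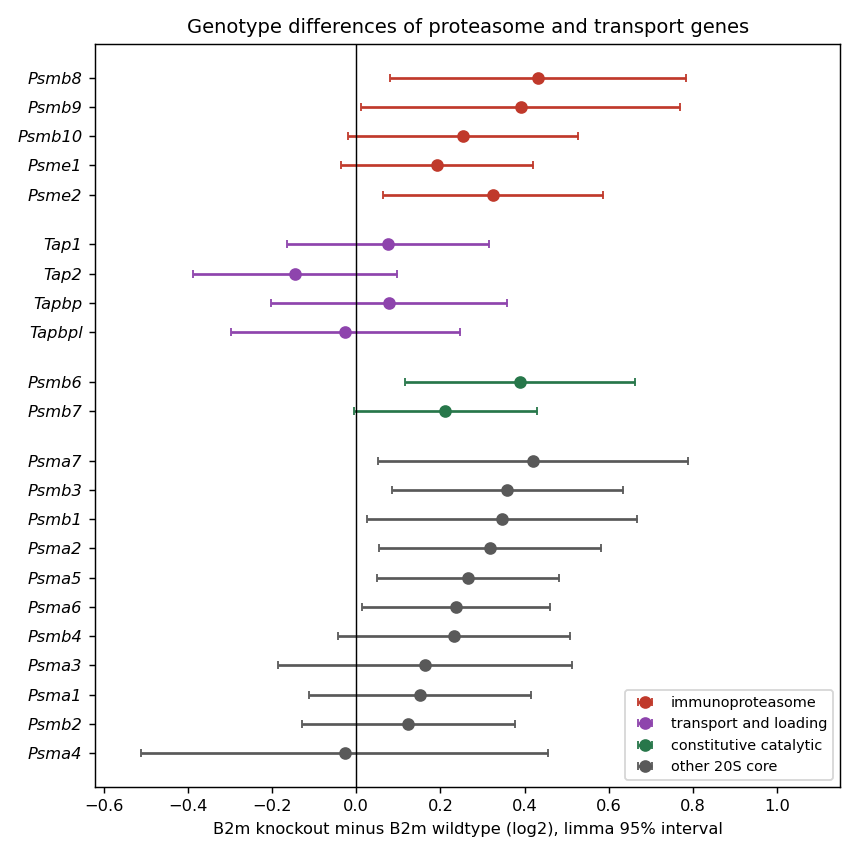
Knockout minus wildtype differences in log2 units with limma 95% intervals for immunoproteasome genes (red), transport and loading genes (purple), 2 constitutive catalytic subunits (green) and 11 other 20S core genes (grey). The red, green and most grey points lie right of 0, from 0.12 to 0.43, while the purple points and Psma4 lie between -0.15 and 0.08.

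The partners of the transporter in the endoplasmic reticulum showed no common direction. Of 5 other loading genes, 2 lay above 0 (against 48.6% of all tested genes) and the median was -0.13. At an unadjusted p under 0.05, 0 were higher and 1 (Uggt1) was lower, against 8.39% and 3.54% of all tested genes. In 1 of the 5 (Calr) every knockout array lay below every wildtype array, as in 3.80% of all tested genes. Uggt1, the glycoprotein folding sensor, differed by -0.31 (SE 0.13, limma adjusted p = 0.399), the chaperone Calr by -0.13 (SE 0.09) and the peptide-trimming enzyme Erap1 by -0.18 (SE 0.12). The 2 above 0 were Pdia3 at 0.19 (SE 0.13) and Canx at 0.02 (SE 0.10). The class I heavy chains H2-K1 and H2-D1, which are named outside the rule, differed by 0.05 (SE 0.12) and 0.09 (SE 0.15), and the nonclassical H2-M3 and H2-T23 by 0.18 (SE 0.12) and 0.15 (SE 0.13). None of these passed in limma after adjustment. Cytosolic peptidases, which shorten or destroy proteasome products, had a median of 0.01 over 4 genes. There the aminopeptidase Lap3 differed by 0.24 (SE 0.15), Thop1 (dim on all 7 arrays) by -0.07 (SE 0.10) and Tpp2 by 0.02 (SE 0.24). Tpp2 exceeded the negative control percentile on 2 of 7 arrays. At an unadjusted p under 0.05, 0 of these 4 genes passed, where 8.39% of all tested genes were higher and 3.54% lower.

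Regulators of the program were examined by list. The factors with which Nlrc5 acts at class I promoters had a median of 0.00224 over 8 genes, with Rfxank at 0.15 (SE 0.11), Atf1 at 0.20 (SE 0.22) and Rfxap at 0.07 (SE 0.11). Interferon receptors and signalling genes had a median of -0.03 over 13 genes, with Irf2 at -0.24 (SE 0.13), Irf8 at 0.19 (SE 0.12) and Irf9 at 0.12 (SE 0.10). Irf1, an interferon-induced activator of this program named outside the rule, was 11.11, 11.69, 11.30 and 11.09 in knockout arrays, against 11.36, 11.05 and 11.39 in wildtype arrays. Its groups overlapped and differed by 0.04 (SE 0.16, limma adjusted p = 0.948). In both lists 0 genes passed at an unadjusted p under 0.05, where 8.39% of all tested genes were higher and 3.54% lower. In lists this short, a count of 0 says little beside those shares.

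The median differences of type I and interferon-gamma targets stood on opposite sides of 0. Type I targets had a median of 0.28 over 13 genes, with 12 above 0 (against 48.6% of all tested genes) and 6 higher at an unadjusted p under 0.05 (against 8.39% of all tested genes). Of the 13, 7 exceeded the negative control percentile on none of the arrays. The growth regulator Slfn2 differed by 0.35 (SE 0.10), the RNA sensor Oas1a by 0.59 (SE 0.20) and Rtp4 by 0.40 (SE 0.14), and Rtp4 was among those 7. Interferon-gamma targets had a median of -0.17 over 12 genes, with 3 above 0 and 0 past an unadjusted p under 0.05. Over all tested genes 8.39% were higher and 3.54% lower at that p. Of the 12, 7 exceeded the negative control percentile on none of the arrays, so this median rests mostly on dim genes. The guanylate-binding proteins Gbp7 and Gbp3 differed by -0.49 (SE 0.23) and -0.33 (SE 0.18), and Ciita, the class II activator related to Nlrc5, by -0.23 (SE 0.12). Ciita was among the dim genes. In limma 0 genes of either list passed. The difference between the lists was not tested.

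**Figure D3:**
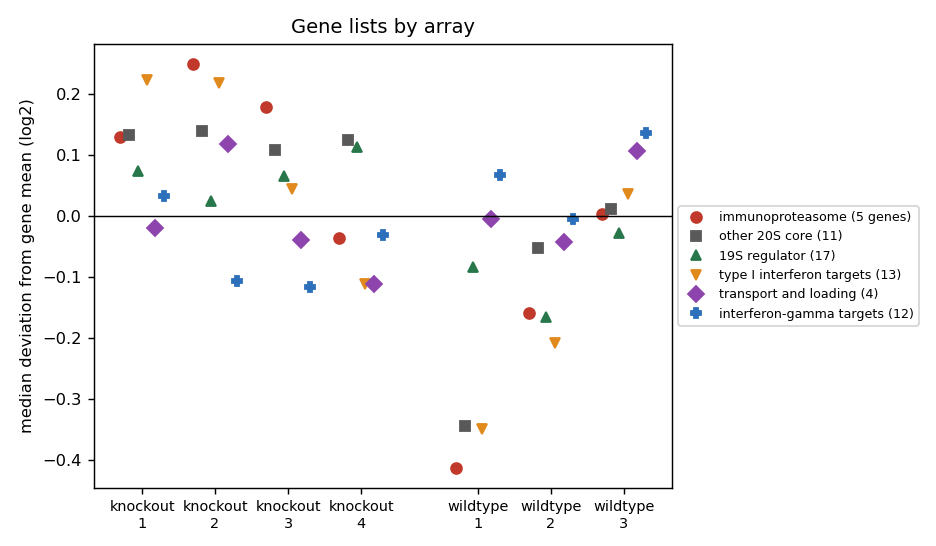
Median deviation of each gene list from its genes' own means in log2 units, 1 set of points per array, knockout arrays on the left and wildtype arrays on the right. Immunoproteasome genes (red circles) are at 0.25 in knockout replicate 2 and -0.41 in wildtype replicate 1, while transport and loading genes (purple diamonds) stay between -0.11 and 0.12.

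Across arrays, the median deviation of the 5 immunoproteasome genes from their own means was 0.13, 0.25, 0.18 and -0.04 in the knockout arrays, against -0.41, -0.16 and 0.00299 in the wildtype arrays. Wildtype replicate 3 thus lay above knockout replicate 4. The same quantity over the other 20S core genes was 0.13, 0.14, 0.11 and 0.13 in the knockout arrays, against -0.34, -0.05 and 0.01 in the wildtype arrays. Wildtype replicate 1 was the lowest array in both lists. The type I targets were at 0.22, 0.22, 0.04 and -0.11 in the knockout arrays, against -0.35, -0.21 and 0.04 in the wildtype arrays. The wildtype arrays lowest in the immunoproteasome genes, replicates 1 and 2, were those with the highest endothelial marker sums. Knockout replicate 4, the lowest of its group, had the highest neutrophil and monocyte marker sums. The part of these markers in the differences was not tested.

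The immunoproteasome genes varied together from array to array. Over 7 arrays, Pearson's r between pairs of the 5 genes ran from 0.81 to 0.99 over 10 pairs, and Spearman's rho from 0.75 to 1. With genotype means subtracted, r ran from 0.61 to 0.98. With 2 arrays left out per pair, it ran from 0.60 to 0.96. These were the arrays farthest from the median of 1 gene of the pair, the gene listed first in the set. The arrays left out therefore differed between pairs. Psmb8 and Psme2, which lie on different chromosomes, had the highest r at 0.99. Between the 5 immunoproteasome genes and the 4 transport and loading genes, r ran from -0.18 to 0.78 over 20 pairs, and among the 4 themselves from -0.38 to 0.41 over 6 pairs. With genotype means subtracted these ranges were -0.17 to 0.88 and -0.45 to 0.78, and with the 2 farthest arrays left out -0.68 to 0.94 and -0.49 to 0.66. Psmb9 and Tap1, which share their start region, had r of 0.61, against 0.95 for Psmb9 and Psmb8. For Tap2, r with the 5 immunoproteasome genes was -0.15 to 0.05, and 0.59 to 0.78 once genotype means were subtracted. Without the 2 farthest arrays the Tap2 values split in sign, but the arrays left out were not the same. With wildtype replicate 1 and knockout replicate 2 left out, r was -0.645 for Psme1, -0.604 for Psme2 and -0.438 for Psmb8. With wildtype replicates 1 and 2 left out, it was 0.528 for Psmb9 and 0.665 for Psmb10. The sign thus went with the arrays left out, so these values do not compare the genes. These correlations are descriptions, since all genes share the same 7 arrays and their normalization. Principal component analysis placed the arrays along a leading axis, which took up 33.6% of their spread. Scores on that axis were -9.10, -17.02, -7.57 and 5.94 in knockout arrays, against 19.14, 9.85 and -1.24 in wildtype arrays. Knockout replicate 2 and wildtype replicate 1 were its ends, and also the highest and lowest arrays in each of the 5 immunoproteasome genes. Whether these 5 vary together more than other genes was not tested.

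**Figure D4:**
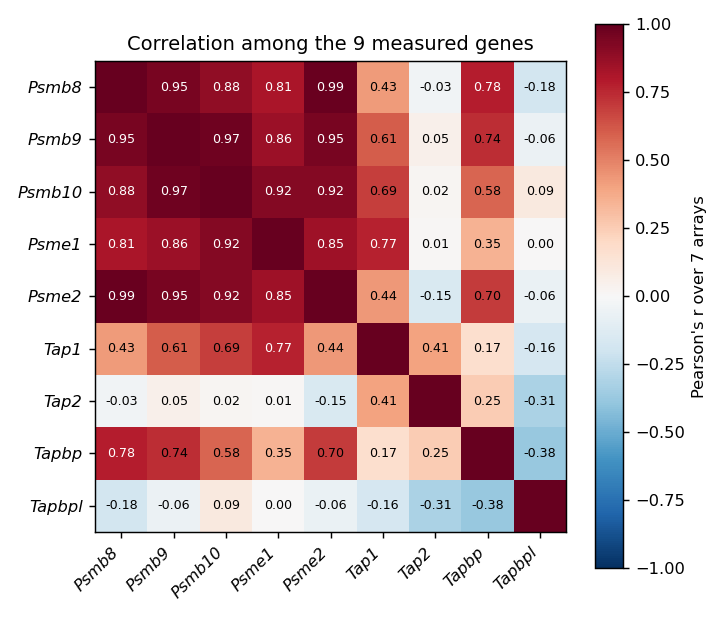
Pearson's r between the 9 measured genes over 7 arrays, with the scale from -1 (blue) to 1 (red). The 5 immunoproteasome genes form a block from 0.81 to 0.99, and with that block Tap2 and Tapbpl lie between -0.18 and 0.09.

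Among tested genes outside the set, the 6 whose values followed the mean of the 9 genes most closely were Fkbp8, Timm13, Cox5b, Rps28, Snord12 and Fau, with Pearson's r from 0.989 to 0.995 over 7 arrays. With genotype means subtracted, r for these 6 was 0.984 to 0.995. Fkbp8 encodes a membrane-bound immunophilin, Timm13 a mitochondrial import chaperone, Cox5b a subunit of respiratory complex IV, Rps28 and Fau ribosomal proteins and Snord12 a small nucleolar RNA. They were picked as the closest of all tested genes, so these values carry no test. Timm13 averaged 11.06 ± 0.19 (SD, n = 4) in knockout and 10.66 ± 0.34 (SD, n = 3) in wildtype arrays, a difference of 0.41 (SE 0.16, limma adjusted p = 0.386). Cox5b differed by 0.23 (SE 0.13, limma adjusted p = 0.510).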

How the data were processed

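Expression was measured in 7 microglia samples, 4 B2m knockout and 3 B2m wildtype, grouped by the genotype label. The authors deposited 1 log2 value for each probe set and array. Per the submitters' processing notes these came from RMA, with Affymetrix Expression Console 1.1 named as the tool, and they were used without further normalization. The genome build of the array is not given in the sources used here. A probe annotation paired 19572 of 28846 rows with 1 symbol, 0 with several, and left 9274 unnamed. Names were updated by Entrez identifier, which matched 19572. Per gene, the probe set with the highest mean was kept. Genes above the array median of named genes on at least 3 of 7 arrays were tested with limma 3.58.1 (R 4.3.3) and Benjamini-Hochberg adjustment over 10004 genes. Separate animals behind the arrays are stated in no label. The p-values therefore rest on array-to-array spread alone, part of which may be technical. The number of arrays limits the precision. Replicate numbers follow deposit order and pair nothing. Pairs of genes were compared within arrays by exact permutation tests. The planned Psmb8 minus Psmb5 comparison was not run. Named genes were the 9 measured members, Psmb6, Psmb7, Psme3, B2m, up to 3 per list by unadjusted p, and 6 by correlation with the mean of the members. The microglial markers, Psme2b, Psma4, Irf1, H2-K1, H2-D1, Pdia3 and Canx were named outside this rule. Members and lists were chosen with earlier results of these data known. The fit was tested on simulated data with the spread of these arrays. Noise was drawn independently for each gene, and a set of genes was given differences of 0.4, 1, 2 or -1 log2 units. The fit called 24% of genes given a difference of 0.4 log2 units, 92% of those given 1, and 14 unchanged genes. Many large changes make the adjustment less strict, and the real arrays share variation between genes. The 24% may thus be too high for these data, where 5 genes were called. A gene that was not called may thus still differ by amounts like those given here. Promoter sequences came from RefSeq (GRCm38.p6), which held windows for 7 of the 10 genes.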

Additional observations from a re-analysis of the deposited data

How the results depend on the processing

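The number of members past the limma threshold was 0 in each of 16 alternatives, and the number lower at an unadjusted p under 0.05 was also 0 in each. The number higher at an unadjusted p under 0.05 was between 0 and 4 when single arrays were left out (0 without wildtype replicate 1, 1 without knockout replicate 2). Single omissions gave 4 to 26 called genes over all genes tested, with 26 without wildtype replicate 3, and medians of the members from 0.14 to 0.25. The sign of Psmb8, Psmb9, Psmb10, Psme1, Psme2, Tap1 and Tap2 was the same in each of 16 alternatives, but Tap1 came as low as 0.0122 over single omissions. Some alternatives could not move these differences and so say nothing on their signs. They were the changes of the filter, the intensity trends in the variance, and the mean of probe sets, since each member had 1 probe set. Tapbp turned to -0.0301 without wildtype replicate 1. Tapbpl turned to 0.00827 with arrays centred on their medians, to 0.0217 without knockout replicate 2, to 0.0147 without knockout replicate 3 and to 0.0673 without wildtype replicate 3, within a range of -0.103 to 0.0673 over single omissions. Psmb9 minus Psmb6 ran from -0.0419 to 0.0837 over single omissions and Psmb10 minus Psmb7 from -0.0471 to 0.172. Psmb9 minus Tap1 ran from 0.14 to 0.46. The cause of these changes was not tested. The last of the 16 alternatives, added after the data were seen, left out wildtype arrays 1 and 2 for their high endothelial marker sums. These were also the arrays lowest in the immunoproteasome genes and 1 wildtype array remained, so smaller differences followed from the choice, and the values bear on neither stability nor the endothelial markers. They were 0 members higher at an unadjusted p under 0.05, a median of 0.00904 (that of Tap1), 0.00326 for Psmb10, -0.0393 for Tapbp, -0.16 for Psmb9 minus Psmb6, -0.22 for Psmb10 minus Psmb7 and 0.0258 for Psmb9 minus Tap1. Tapbpl was above the 95th percentile of negative control rows on 5 of 7 arrays.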
